A study of Mus musculus with 2 samples.

Results

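The cells described here were the barcodes of mouse femur that spent at least 5% of their transcripts on *Prg4*. They were chosen by 5 limits: at least 200 detected genes, *Prg4* at 5% or more of the unique molecular identifiers (UMIs, 1 per captured transcript), fewer than 3 UMIs of *Cytl1*, *Col2a1* under 0.5%, and the 4 adult haemoglobin genes under 10% of UMIs. They numbered 114 of the 8553 cells with at least 200 genes, of which 20 were among 4633 untreated cells and 94 among 3920 cells after calcitriol. Because the rule selected on *Prg4*, *Cytl1*, *Col2a1* and haemoglobin, the levels of those genes are a description of the choice and not a result.

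Both libraries came from femurs of 7-week-old male C57BL/6J mice. One group was untreated. The other received calcitriol, the hormonal form of vitamin D, intravenously at 2.5 μg/kg once a day for 3 injections, and its femurs were taken 24 h after the last. In each group the femurs of 6 mice were pooled, the epiphyses were cut away, the marrow was spun out, the bone was digested with collagenase and EGTA, and CD45+ blood cells were depleted, so each group was 1 library. With 1 library per group there was no test between groups, the treatment and the library cannot be told apart, and every interval given here is a 95% interval for counting error only.

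*Prg4* encodes lubricin, a mucin-like glycoprotein that coats joint surfaces and lets them slide. It is made by fibroblasts that line the synovial membrane and by chondrocytes at the surface of articular cartilage. Lining fibroblasts also release hyaluronan and fibronectin into the joint, while fibroblasts deeper in the synovium, often marked by *Thy1*, make little lubricin. The *Cytl1* and *Col2a1* limits of the rule were what separated the cells from surface chondrocytes.

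The Prg4-high cells were a small share of both libraries and a larger share after calcitriol. They made up 0.432% (exact binomial interval 0.264 to 0.666%) of untreated cells and 2.40% (1.94 to 2.93%) of cells after calcitriol. Among cells with haemoglobin under 10% of UMIs, which leaves out most red cell precursors, they were 0.893% of 2239 and 2.72% of 3458. *Prg4* at 5% or more was found in 84 untreated and 274 calcitriol cells, and the *Cytl1* limit removed 62 and 177 of them, the *Col2a1* limit 2 and 1, and the haemoglobin limit 0 and 2. Fewer cells of a kind recovered from the digest and fewer cells in the tissue cannot be told apart here.

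*Prg4* (ENSMUSG00000006014, chr1:150449412-150466165, minus strand, GENCODE annotation of GRCm38) varied widely within each library. Its share of a cell's UMIs ran from 5.13 to 30.3% with a median of 8.86% in the 20 untreated cells, and from 5.15 to 38.0% with a median of 15.6% in the 94 calcitriol cells. The ranges overlapped almost entirely, but the calcitriol cells reached further up. Summed over cells the level was 117421 CPM (counts scaled to 1000000 UMIs) untreated and 178405 CPM after calcitriol. The 3 untreated cells just inside the limit had 5.13, 5.39 and 5.88%, and the 3 just outside had 4.86, 4.85 and 3.73%. In calcitriol the corresponding cells had 5.15, 5.21 and 5.34% inside and 4.97, 4.83 and 4.78% outside, so the limit cut through a continuous range. Of all *Prg4* UMIs, the Prg4-high cells held 19.8% untreated and 43.5% after calcitriol.

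**Figure D1:**
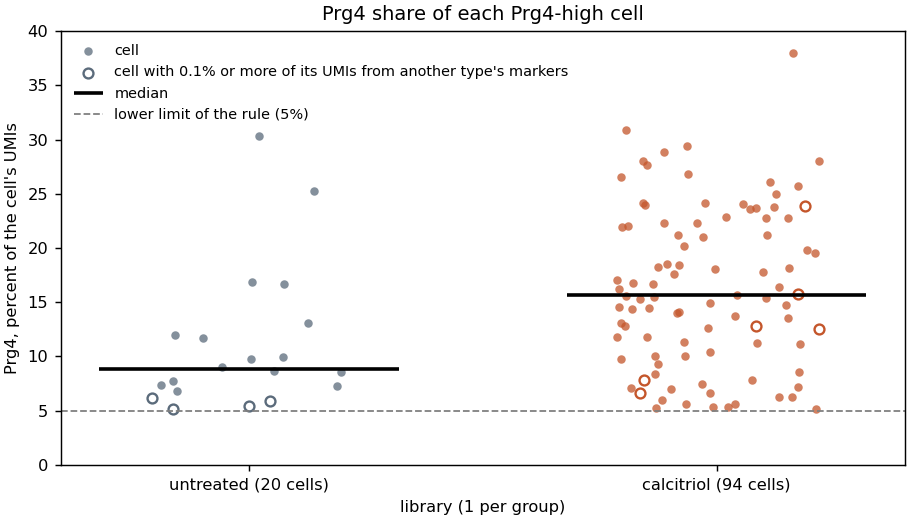
Percent of each cell's UMIs that were *Prg4* (y axis) in the 20 untreated and 94 calcitriol Prg4-high cells (x axis), with the median as a bar and the limit of the rule dashed. Medians were 8.86 and 15.6%, and open points mark the 4 untreated and 6 calcitriol cells that also held another cell type's markers.

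The calcitriol cells were somewhat more deeply sequenced than the untreated ones. The median was 17927 UMIs and 3821.5 genes in untreated cells, and 23378 UMIs and 3912 genes after calcitriol, with totals of 350746 and 2183515 UMIs. Mitochondrial genes took a median of 3.10 and 3.17% of UMIs and haemoglobin 0.0945 and 0.0197%. The libraries shared 8 barcodes in all, and none of them belonged to a Prg4-high cell. A doublet score from simulated pairs marked 0 of the 20 untreated and 2 of the 94 calcitriol cells.

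After *Prg4* the most abundant transcripts included matrix, cytoskeletal and nuclear ones. First came the nuclear RNA *Malat1*, then *Fn1* (fibronectin) at 21049 CPM untreated and 25526 CPM after calcitriol, in 18 of 20 and 91 of 94 cells. *Dcn*, the collagen-binding proteoglycan decorin, stood at 4114 and 9117 CPM, and *Sparc*, a collagen chaperone, at 6660 and 4351 CPM. *Gsn*, *Cst3*, *S100a6*, *Fth1*, *Vim*, *Tpt1*, *Rgcc*, *Fos*, *Mt1* and the predicted gene *Gm42418* made up the rest of the 15 most abundant genes outside mitochondrial and ribosomal protein genes.

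Markers of synovial lining fibroblasts were present in most of the cells. *Clic5*, a membrane-associated chloride channel protein, was at 1554 and 907 CPM (untreated and calcitriol), and *Htra4*, a secreted serine protease, at 1551 and 2307 CPM. *Tspan15*, a tetraspanin, was at 582 and 251 CPM, *Has1*, a hyaluronan synthase, at 2452 and 1943 CPM, and *Hbegf*, an EGF-family ligand, at 3695 and 2207 CPM. All 5 of these were detected together in 16 of 20 untreated and 73 of 94 calcitriol cells. *Cd55*, a complement inhibitor used to mark the lining, was at 428 and 226 CPM. *Dnase1l3* had 0 UMIs in both libraries, *Mmp3* had 2 and 1, and *Has2* had 2 and 20, so the list was not complete. In the untreated library 1 cell held 1 of the 5 and 2 cells held 2, and after calcitriol 3 cells held 1 and 6 cells held 2, so the lining label did not describe every cell.

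These markers were not all restricted to the lining. Endothelial reference cells, which were chosen by vascular genes, held *Clic5* at 421 CPM in 63.6% of untreated cells and *Tspan15* at 50.2 CPM in 31.6%. They held *Htra4* in only 2.19 and 3.66% of cells and *Has1* in 5.26 and 6.23%. In erythroid reference cells, with haemoglobin at 50% or more of UMIs, *Clic5* was found in 0.0520 and 0.265% of cells and *Prg4* itself in 8.01 and 34.4%, at 8.98 and 135.8 CPM. Free RNA in the droplets can give such counts, and the *Prg4* level of the Prg4-high cells was over 5% by choice.

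Markers of other cell types were low with a few exceptions. *Thy1* had 0 UMIs untreated and 10 after calcitriol, and *Pi16*, a marker of adventitial fibroblasts, had 0 and 1. The fibroblast genes *Ly6a* (915 and 783 CPM), *Dpt* (416 and 354 CPM) and *Pdgfra* (134 and 189 CPM) were present. All 14 macrophage and leukocyte markers, *Ptprc*, *Cd68* and *Csf1r* among them, were at 0 UMIs untreated. After calcitriol 8 of the 14 were at 0, and 98.8% of the list's 666 UMIs lay in 1 cell with *S100a9* the most abundant. The endothelial list without *Eng* had 0 UMIs untreated and 102 after calcitriol, 94.1% of them in 2 cells.

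Most UMIs of cartilage genes lay in few cells of either library. In 4 of 20 untreated and 3 of 94 calcitriol cells at least 0.1% of UMIs came from the cartilage list without *Col2a1* and *Sox9*. The 3 calcitriol cells held 82.2% of that list's UMIs in their library, and the 4 untreated cells held 99.02% in theirs. Those 4 had *Prg4* between 5.13 and 6.15%, *Comp* at 4346 CPM, *Chad* at 2229 CPM and *Col11a1* at 3104 CPM, against 12.7, 0 and 3.17 CPM in the other 16. Their *Fn1* was at 536 CPM against 23355 CPM, and *Tspan15* was at 0 against 647 CPM. The 3 calcitriol cells had *Comp* at 2916 CPM, *Chad* at 1031 CPM and *Col11a1* at 1408 CPM, but the other 91 still held *Comp* at 581 CPM in 30 cells, *Chad* at 20.5 CPM in 17 and *Col11a1* at 3.27 CPM in 6. *Col11a1* is on the cartilage list, so its contrast follows from the choice of cells, while *Comp* and *Chad* are not on it. Erythroid reference cells held a list of articular surface cartilage genes at 47.3 CPM untreated and 251 CPM after calcitriol. The part of free RNA in the counts of the other 91 cells was not tested. Comparisons between the libraries are therefore also given without the 4 untreated and 6 calcitriol cells that held cartilage, endothelial or leukocyte genes at 0.1% or more.

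Detection of *Clic5* was lower towards the lower limit of *Prg4*, and after calcitriol that of *Htra4* and *Has1* was lower to a smaller extent. Among calcitriol cells with *Prg4* at 20% or more, *Clic5* was detected in 100% of 31 cells. At 10 to 20% it was detected in 90.5% of 42, at 5 to 10% in 38.1% of 21, and at 3 to 5%, outside the rule, in 16% of 25. In the untreated library the same bins gave 100% of 2, 100% of 5, 76.9% of 13 and 60% of 5. *Htra4* was detected in 100, 100, 76.2 and 68% of the calcitriol cells of these bins and in 100, 100, 92.3 and 100% of the untreated ones. For *Has1* the shares were 100, 97.6, 85.7 and 64% after calcitriol and 100, 100, 76.9 and 80% untreated. Median UMIs per cell also differed between bins, at 27063, 23357 and 12447 in the 3 calcitriol bins inside the rule, and their part in the detection was not tested.

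The Prg4-high cells were next set against 3 other classes of the same libraries. Articular surface cartilage cells (129 untreated and 438 calcitriol) had *Prg4* at 1% or more and 3 or more UMIs of *Cytl1*. Fibroblasts (474 and 688) had a UMI each of *Ly6a* and *Pdgfra*, with *Prg4* under 1% and *Cytl1* under 3 UMIs. Tendon-like cells (93 and 80) had a UMI each of *Kera* and *Angptl7* with *Prg4* under 1%, and 22 and 19 of them were also among the fibroblasts. A gene was counted where it differed by 2-fold or more in the same direction in both libraries.

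Against surface cartilage, 325 of 4627 genes (7.02%) were higher and 595 (12.9%) lower in the Prg4-high cells. *Tspan15* ranked first among the higher genes, at 582 against 1.04 CPM untreated and 251 against 0.463 CPM after calcitriol. *Clic5*, *Calcrl* (the calcitonin receptor-like receptor), *Pla1a* (a phosphatidylserine phospholipase), *Cyp1b1* and *Fbln5* (an elastic fibre protein) were higher by log2 6.14 or more in each library. *Rspo2*, a Wnt-enhancing ligand, was at 234 and 119 CPM in the Prg4-high cells and at 0 UMIs in surface cartilage, which makes it at least log2 7.23 and 8.0 higher. *Col22a1* was at 462 and 265 CPM against 0 and 2.01 CPM. *Fn1* was at 1516 and 2910 CPM in surface cartilage. Lower in the Prg4-high cells were *Msmp*, *Omd* (osteomodulin), *Ibsp* (bone sialoprotein), *Myoc*, *Chadl* and the 3 chains of collagen IX. *Ibsp* was at 45.6 and 71.0 CPM against 2763 and 4860 CPM.

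Against fibroblasts, 195 of 8697 genes (2.24%) were higher and 771 (8.87%) lower. *Clic5* was at 7.44 and 7.45 CPM in fibroblasts, *Htra4* at 19.8 and 28.4 CPM and *F13a1*, the A chain of coagulation factor XIII, at 11.5 and 16.9 CPM against 1377 and 719 CPM in the Prg4-high cells. *Areg*, an EGF-family ligand, was at 160 and 27.0 CPM against 1.61 and 0.0887 CPM. Lower were *Mmp13* (collagenase 3) at 2.85 and 5.5 CPM against 1286 and 2009 CPM, and *Postn* (periostin) at 0 and 4.58 CPM against 1429 and 979 CPM. *Spp1*, *Aspn*, *Sfrp2*, *Fndc1* and *Tnn*, matrix genes and a Wnt antagonist, had log2 ratios of -5.33 or below in both libraries. In fibroblasts *Mmp13* was detected in 13.9 and 20.5% of cells, *Tnn* in 15.4 and 18.3% and *Sfrp2* in 16.9 and 15.7%, so these levels came from a minority of them. Of the 17 collagen chains entered, 13 were lower than in fibroblasts in both libraries and 1 was higher.

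Against tendon-like cells, 162 of 3590 genes (4.51%) were higher and 293 (8.16%) lower. *Tnmd* (tenomodulin) was at 0 and 1.37 CPM against 1435 and 871 CPM, *Thbs4* at 59.9 and 79.7 CPM against 6982 and 7697 CPM, and *Scx*, a tendon transcription factor, at 5.70 and 1.37 CPM against 308 and 71.1 CPM. *Pla1a* and *Calcrl* had 0 UMIs in the tendon-like cells of both libraries. *Clic5*, *F13a1*, *Tspan15*, *Htra4*, *Cxcl2*, *Aldh1a3*, *Cyp1b1* and *Sema5a* were higher in the Prg4-high cells by log2 5.49 or more in both. Of these, *Cxcl2* was detected in only 10% of untreated and 9.57% of calcitriol Prg4-high cells. *Clic5*, *Tspan15* and *Pla1a* were among the 10 largest in each of the 3 comparisons.

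**Figure D2:**
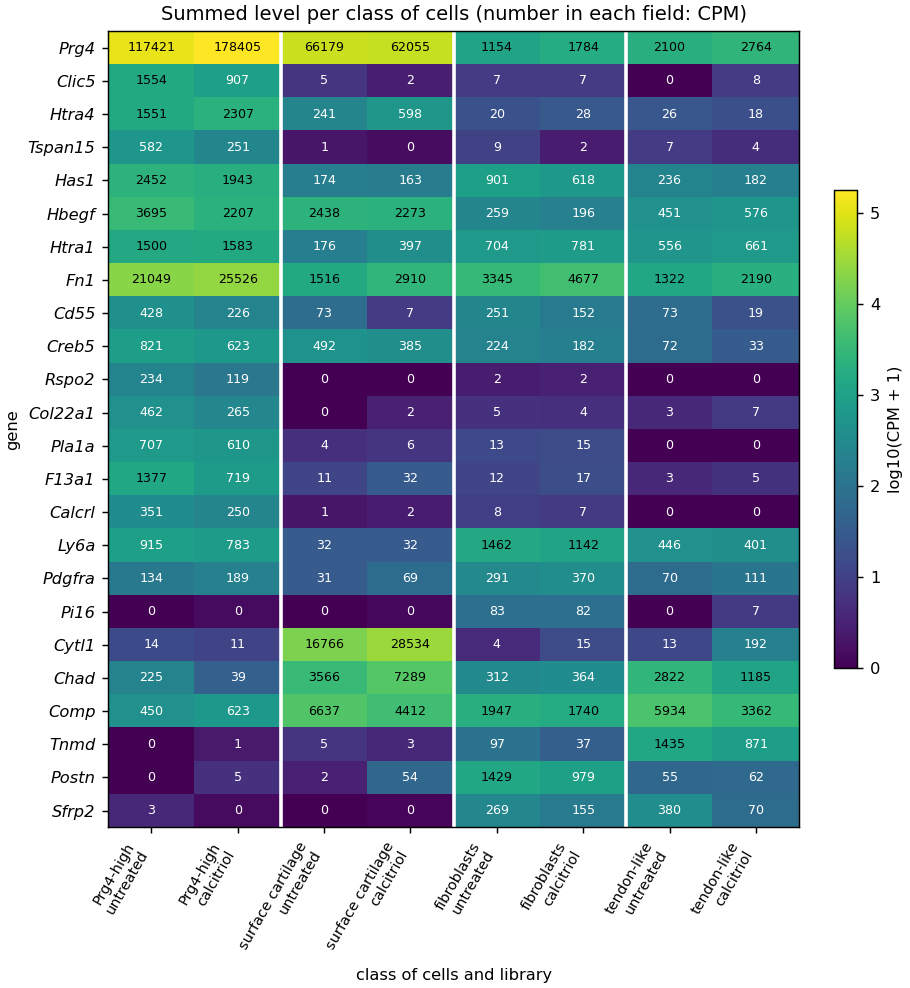
Summed level in CPM (number in each field, rounded to whole CPM, and colour as log10 of CPM + 1) of 24 genes (rows) in 4 classes of cells of each library (columns). *Prg4*, *Fn1*, *Clic5*, *Htra4* and *Pla1a* are brightest in the Prg4-high columns, while *Cytl1*, *Chad*, *Tnmd* and *Postn* are brightest in the other classes.

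For hyaluronan, the other lubricant of the joint, *Has1* was the most abundant synthase. It was at 2452 CPM in 17 of 20 untreated cells and at 1943 CPM in 90 of 94 calcitriol cells, against 901 and 618 CPM in fibroblasts, and *Has3* had 0 UMIs in both libraries. The genes for its sugar precursors, *Ugdh* (724 and 949 CPM), *Uap1* (770 and 725 CPM) and *Gfpt2* (721 and 877 CPM), were within 2-fold between libraries. *Ugp2* (513 and 186 CPM) and *Gnpnat1* (345 and 148 CPM), which also act in that supply, and *Cemip*, a hyaluronan-degrading protein (74.1 and 12.8 CPM), were 2-fold or more lower after calcitriol. Of the 14 genes of the hyaluronan list entered, those 3 were lower and 0 were higher, where 6.35% of all genes entered were lower and 4.78% higher, and the median log2 ratio was -0.21, the same to 2 decimals as that of all genes.

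In the comparison of calcitriol with untreated cells, 4879 genes were entered, with 50 or more UMIs over both libraries and a UMI in 10% of the cells of either. Of these 233 (4.78%) were 2-fold or more higher after calcitriol and 310 (6.35%) lower, and the median log2 ratio was -0.21. In 75 and 134 of them the whole counting interval lay beyond 1.5-fold. With *Prg4* left out of the total the median was -0.11, a shift of 0.10, so small ratios are best read against the median. Without the cells that held other types' markers, 197 of the 233 and 237 of the 310 were still 2-fold or more different in the same direction.

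Among genes higher after calcitriol and held by at least 20% of calcitriol cells, *Serpina3n*, *Slpi* and *Lox* had the largest ratios. *Serpina3n*, a secreted protease inhibitor, had 2 UMIs in 2 of 20 untreated cells and 375 UMIs in 65 of 94 calcitriol cells, or 5.70 and 172 CPM (log2 4.91, 3.05 to 7.96). With 2 untreated UMIs each, *Serpina3n* and *Slpi* reached the UMI limit only through the calcitriol library. An entered gene with so few untreated UMIs could only come out higher, and nothing is read from the rank of *Serpina3n* and *Slpi*. *Lox*, which cross-links collagen and elastin, had 7 and 963 UMIs, or 20.0 and 441 CPM (log2 4.47, 3.42 to 5.78). Over cells its highest value was 117 CPM untreated, and 57 of the 94 calcitriol cells lay above that. *Lbp*, the lipopolysaccharide-binding protein, was at 88.4 and 716 CPM (log2 3.02, 2.51 to 3.58). *Ramp2*, a partner that with *Calcrl* forms an adrenomedullin receptor, was at 125 and 769 CPM (log2 2.62, 2.18 to 3.08), while *Calcrl* was at 351 and 250 CPM. *Lbp*, *Ramp2* and the genes *Eln*, *Klf15* and *Slc10a6* named below were picked after their values were seen.

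*Adamts5*, the main aggrecan-cleaving protease of mouse cartilage, was also higher after calcitriol. It had 124 UMIs in 16 of 20 untreated cells and 4995 UMIs in 87 of 94 calcitriol cells, or 354 and 2288 CPM (log2 2.69, 2.44 to 2.96). The median cell was at 174 CPM untreated and 1952 CPM after calcitriol. In 69 of the 94 calcitriol cells the value exceeded the highest untreated cell, at 1081 CPM. The same gene was higher after calcitriol by log2 2.32 in surface cartilage, 0.68 in fibroblasts and 0.53 in tendon-like cells.

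**Figure D3:**
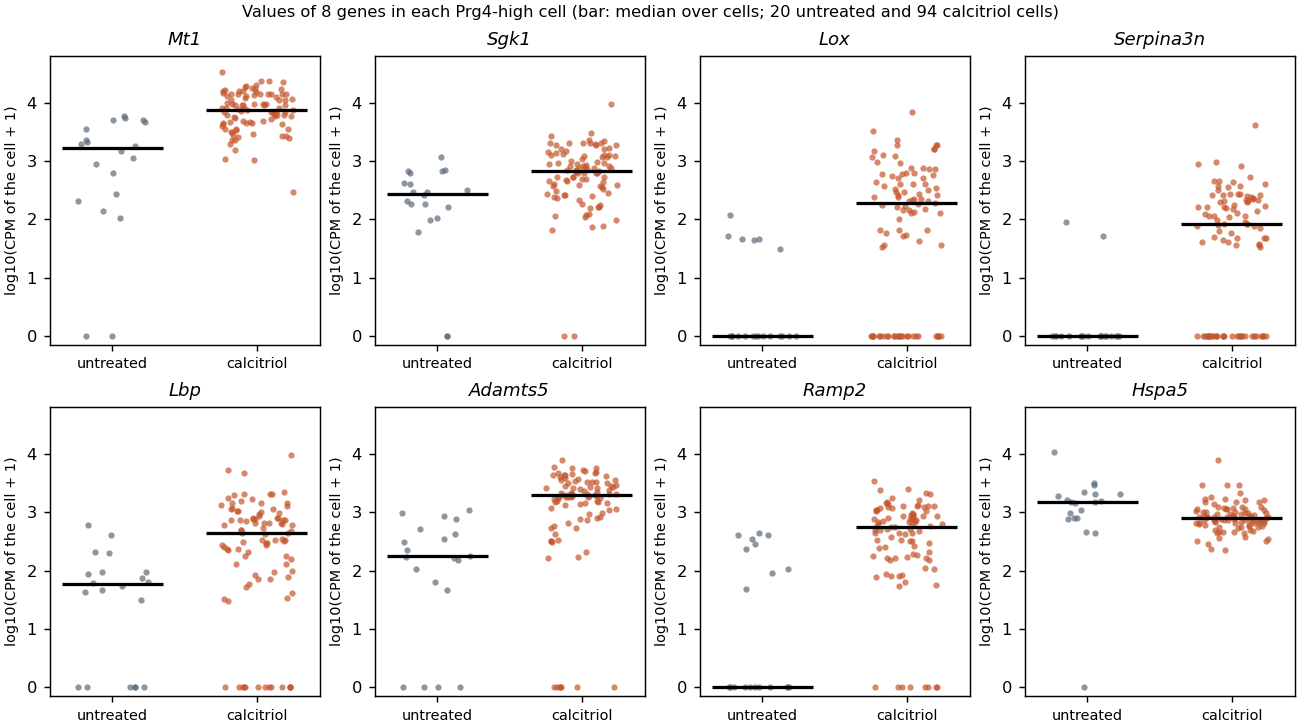
Value of 8 genes in each Prg4-high cell, as log10 of the cell's CPM + 1 (y axis), for 20 untreated and 94 calcitriol cells (x axis), with the median over cells as a bar. *Lox*, *Serpina3n* and *Ramp2* have a median of 0 in untreated cells, and the calcitriol points of *Mt1* and *Adamts5* mostly lie above the untreated ones, while those of *Hspa5* lie mostly below the untreated median.

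Some of the largest ratios rested on few cells. *Icam1* had 1 and 130 UMIs, 53.8% of the latter in 1 cell, and was at log2 -0.19 with no *Cytl1* limit. *Fabp4* had 1 and 119 with 66.4% in 1 cell, and *Ptx3* had 2 and 184 with 42.4% in 1 cell. *Slpi* was detected in 24 of the 94 calcitriol cells and *Kitl*, the stem cell factor gene, in 31. *Hspb7*, *Fbln2* and *Plin4*, at log2 4.36, 3.89 and 3.87, were detected in 51, 46 and 43. *Eln* (elastin) had 0 UMIs untreated and 100 in 38 cells after calcitriol, which makes it at least log2 2.42 higher. Aggrecanase gene *Adamts4* and *Plau*, the urokinase gene, had 0 untreated UMIs and were each detected in 17 calcitriol cells, at least log2 3.22 and 2.44 higher. *Eln*, *Adamts4* and *Plau* were entered through the calcitriol library alone and so could only come out higher. *Icam1*, *Fabp4*, *Kitl*, *Fbln2* and *Plin4*, each in 1 untreated cell, passed the cell limit through that library alone. *Slpi*, *Hspb7* and *Ptx3*, with 2 untreated UMIs each, reached the UMI limit only through the calcitriol library. They too could only come out higher, and nothing is read from their rank. None of *Plau*, *Adamts4*, *Icam1*, *Ccl2*, *Cxcl10*, *Slpi* and *Ptx3* was detected in 31 of the 94 calcitriol cells, 27 held 1 of these 7 genes and 2 held 6.

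Genes that respond to glucocorticoid hormones had the highest median ratio of the lists with more than 1 gene entered. Of its 18 genes 15 were entered, 9 were 2-fold or more higher after calcitriol and 0 lower, beside 4.78 and 6.35% of all genes, and the median log2 ratio was 1.33 against -0.21 for all genes. The metallothioneins *Mt1* and *Mt2*, which bind zinc and are also induced by metals, were at 2483 and 8792 CPM (log2 1.82, 1.73 to 1.92) and at 1049 and 3542 CPM (log2 1.76, 1.60 to 1.91). *Mt1* was above the highest untreated cell, at 5833 CPM, in 62 of the 94 calcitriol cells. *Fkbp5*, a chaperone of the glucocorticoid receptor, was at 14.3 and 72.8 CPM, and *Tsc22d3*, the glucocorticoid-induced leucine zipper, at 48.5 and 215 CPM. *Sgk1*, *Glul*, *Pdk4*, *Zbtb16* and *Cebpd* were higher by log2 1.15 to 1.58. *Klf9*, *Errfi1* and *Dusp1* were at log2 -0.03, -0.13 and 0.02. *Klf15* and *Slc10a6*, outside the list, had 0 UMIs untreated and were at least log2 1.63 and 2.17 higher. They were entered through the calcitriol library alone and so could only come out higher, and nothing is read from them. All 9 higher genes stayed 2-fold or more higher without the cells that held other types' markers, and the same 15 genes had medians of 1.09 in surface cartilage, 0.89 in fibroblasts and 1.09 in tendon-like cells.

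The secretory list includes chaperones of the endoplasmic reticulum, which fold secreted proteins. Of the 29 genes of the secretory pathway and the unfolded protein response 26 were entered, 0 were 2-fold or more higher and 6 lower, beside 4.78 and 6.35% of all genes, and the median log2 ratio was -0.58 against -0.21. With *Prg4* left out of the total 2 of the 26 were 2-fold or more lower, and with *Prg4* at 10% or more 2 were lower and 2 higher, *Creld2* among them at log2 1.24. *Hspa5*, the chaperone BiP, was at 1739 and 850 CPM (log2 -1.03, -1.16 to -0.90), with medians over cells of 1512 and 793 CPM. *Hsp90b1* was at 892 and 426 CPM, *Calr* (calreticulin) at 995 and 487 CPM, and *Manf*, a stress-induced secreted protein, at 342 and 132 CPM. Only 10 of 94 calcitriol cells exceeded the untreated median of *Hspa5*, and 7 that of *Calr*, though the highest cells of the libraries overlapped. *Dnajb11* and *Creld2* were the other 2 past 2-fold, at log2 -1.06 and -1.45. Without the cells that held other types' markers 2 of the 6 stayed past 2-fold, *Hsp90b1* and *Manf*, and the median was -0.61. The same 26 genes had medians of -0.59 in surface cartilage, -0.49 in fibroblasts and -0.76 in tendon-like cells.

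**Figure D4:**
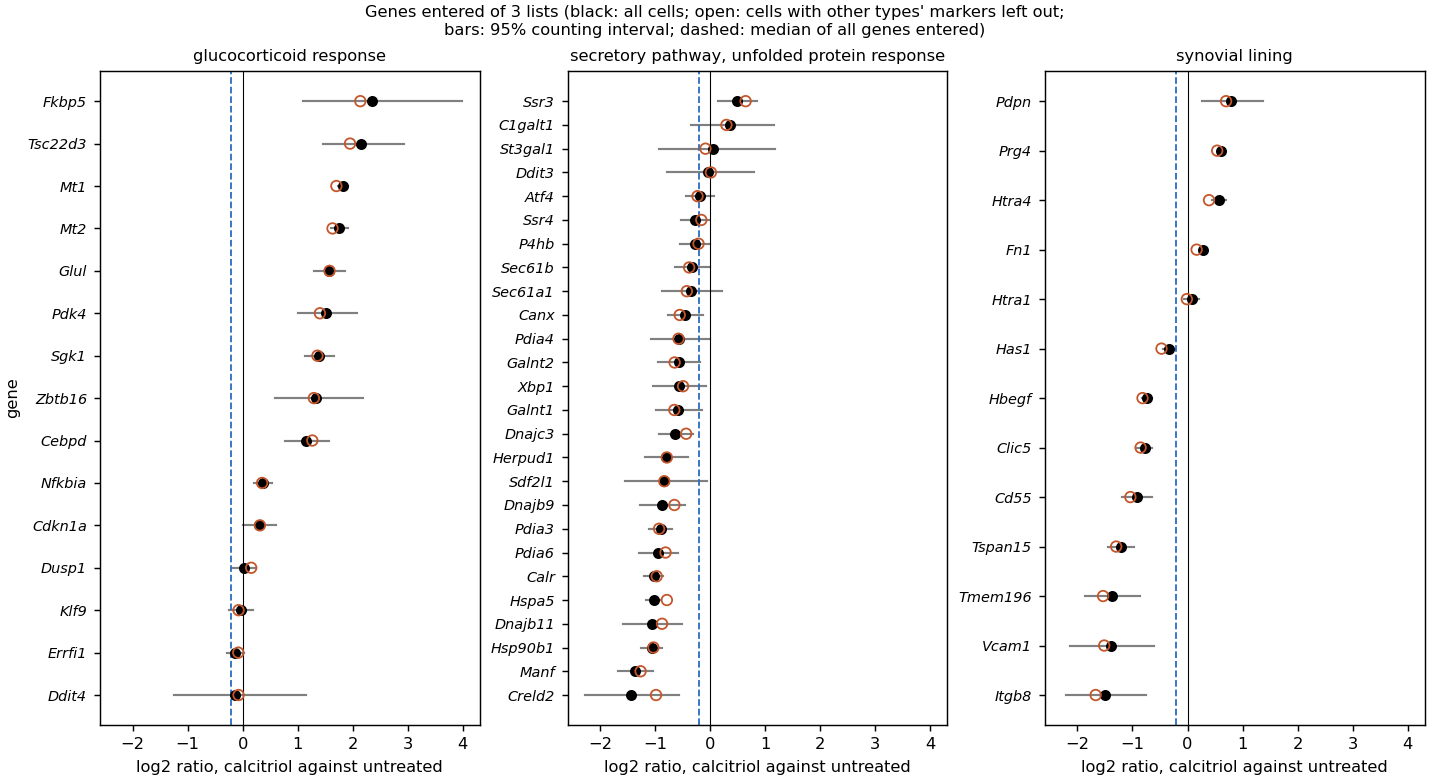
Log2 ratio of calcitriol against untreated (x axis) for each gene entered (y axis) of 3 lists, with 95% counting intervals as bars, open points without the cells that held other types' markers, and the median of all genes, -0.21, dashed. All 15 glucocorticoid-response genes lie right of the dashed line, and 21 of the 26 secretory-pathway genes lie left of it.

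Several of these chaperone genes share a sequence before their start. The endoplasmic reticulum stress element, CCAAT and CCACG with 9 bases between them, was searched on both strands in the 250 bases before each start in the RefSeq promoters of GRCm38.p6. It was found in 37 of 32851 promoters (0.113%) and in 7 of the 22 secretory-pathway genes that had an entry: *Hspa5*, *Hsp90b1*, *Pdia6*, *Calr*, *Canx*, *Dnajc3* and *Creld2*. The median log2 ratio of these 7 was -1.03, and that of the other 14 with an entry that were entered was -0.45. The motif was chosen after the values were seen, and a match is a description of letters, not of binding. The stretches around it are shown because 4 of these 5 genes were among the 6 past 2-fold, with the element in capitals and each stretch on the strand of its gene, at chr2:34772010-34772058 (plus) for *Hspa5*, chr8:84847060-84847108 (minus) for *Calr*, chr12:17266476-17266524 (plus) for *Pdia6*, chr15:88819505-88819553 (plus) for *Creld2* and chr10:86705518-86705671 (minus) for *Hsp90b1*, which has it in both orientations.
Hspa5: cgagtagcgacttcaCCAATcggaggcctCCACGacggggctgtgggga
Calr: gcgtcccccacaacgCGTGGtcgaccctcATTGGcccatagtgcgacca
Pdia6: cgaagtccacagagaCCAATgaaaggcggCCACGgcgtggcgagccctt
Creld2: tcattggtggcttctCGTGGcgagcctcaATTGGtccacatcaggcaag
Hsp90b1: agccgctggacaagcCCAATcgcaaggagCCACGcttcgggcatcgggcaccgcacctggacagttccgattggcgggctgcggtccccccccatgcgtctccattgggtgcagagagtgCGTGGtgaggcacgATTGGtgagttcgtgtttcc

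The metallothionein promoters hold the metal response element core, TGCACNC or TGCGCNC, which 21.4% of all promoters also hold on one strand or the other. In the 250 bases before each start, *Mt1* has 1 match at chr8:94179051-94179087 and *Mt2* has 3 matches at chr8:94172380-94172589, both genes being on the plus strand. Matches outside those bases were not searched for, so these are not full counts for either gene. The third match of *Mt2*, at the end of the stretch, is on the minus strand. They are shown because *Mt1* was the most abundant gene of the glucocorticoid list and *Mt2* is its neighbour in sequence and position, with the matches in capitals.
Mt1: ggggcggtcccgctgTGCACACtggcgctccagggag
Mt2: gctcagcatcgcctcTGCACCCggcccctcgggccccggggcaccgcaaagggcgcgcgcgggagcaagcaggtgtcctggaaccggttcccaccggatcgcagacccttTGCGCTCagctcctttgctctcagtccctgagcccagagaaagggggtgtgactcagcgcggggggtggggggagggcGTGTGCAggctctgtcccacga

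Of the synovial lining list without *Prg4*, 12 genes were entered, 0 were 2-fold or more higher and 4 lower, beside 4.78 and 6.35% of all genes, with a median log2 ratio of -0.76 against -0.21. Thinned to 2000 UMIs a cell, 2 were lower and the median was -0.21 against -0.22 for all genes. It was -0.39 with no *Cytl1* limit and -0.46 with *Prg4* at 10% or more, against -0.15 and -0.09. *Tspan15* (log2 -1.21, -1.45 to -0.97) was the most abundant of the 4, and *Tmem196*, *Vcam1* (a leukocyte adhesion receptor) and *Itgb8* (an integrin chain) were lower by log2 1.38 to 1.5. *Tmem196* was at 0.49 with *Prg4* at 10% or more and at 0.59 when thinned. *Clic5*, *Cd55* and *Hbegf* stood at -0.78, -0.92 and -0.74, *Htra1* at 0.08 and *Htra4* at 0.57. Detection of *Clic5* was similar, in 17 of 20 and 77 of 94 cells. *Creb5*, a transcription factor known to act on *Prg4*, was at 821 and 623 CPM. Among the other regulators of lubricin *Foxo1*, *Pitx1* and the TGF-beta receptor gene *Tgfbr2* were 2-fold or more lower, at log2 -1.32, -1.51 and -1.14, which makes 3 of 19 entered, beside 6.35% of all genes.

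Among proteases *Adamts5* was the most abundant of those higher. Of 22 entered genes of proteases and their inhibitors 4 were 2-fold or more higher, *Adamts5*, *Adamts4*, *Plau* and *Adamts2*, and 0 lower, beside 4.78 and 6.35% of all genes, with a median of 0.49 against -0.21. *Adamts4* and *Plau*, with 0 untreated UMIs, were entered through the calcitriol library alone and so had to differ, and nothing is read from that count. *Ctsk* and *Ctsl*, cathepsins, were at 693 and 1079 CPM and 1043 and 1489 CPM. *Timp1* was at 932 and 581 CPM. Among complement genes *C4b* and *C1s1* were higher by log2 1.96 and 1.74, though *C4b* was at -0.58 with no *Cytl1* limit, and *Clu*, at -1.10, was 0.89 without the cells that held other types' markers. *Serping1*, the most abundant of that list, was at 599 and 602 CPM.

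Chemokine and cytokine genes went both ways over all cells. Without the cells that held other types' markers 6 were 2-fold or more higher and 1 lower, beside 263 and 326 of all 4879 genes. *Ccl2* (14.3 and 196 CPM), *Cxcl10* (22.8 and 122 CPM), *Il6* (65.6 and 228 CPM), *Kitl* and *Il1r1* were 2-fold or more higher, and *Cxcl2*, *Cxcl14* and *Tnfrsf11b*, the decoy receptor osteoprotegerin, lower, which makes 5 and 3 of 14 entered, beside 4.78 and 6.35% of all genes. *Ccl2* and *Cxcl10* were each detected in 1 untreated cell and in 16 and 14 calcitriol cells, and *Cxcl10* was at log2 -0.15 with *Prg4* at 10% or more. Like *Kitl*, also in 1 untreated cell, they passed the cell limit through the calcitriol library alone. Nothing is read from the count of 5 higher genes. *Cxcl2* was detected in 2 of 20 and 9 of 94 cells and was at log2 0.42 when thinned, and *Tnfrsf11b* was at 0.78 with *Prg4* at 3% or more. *Cxcl1* was the most abundant at 890 and 1261 CPM, in 8 of 20 and 54 of 94 cells. *Cxcl14*, at log2 -1.12, was 2.32 without the cells that held other types' markers. The interferon-induced *Bst2* was at log2 -1.10, though at 0.28 with *Prg4* at 10% or more, and *Irf1* was higher by 1.05. *Isg15* was at 120 and 30.2 CPM in the Prg4-high cells and at 820 and 1080 CPM in the erythroid reference cells, so no difference is read from it, and none from *Ifit1*, which after calcitriol was at 14.7 CPM against 19.1 CPM there.

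Immediate early genes, which digestion of tissue also induces, were abundant in both libraries. Summed over 41 such genes and heat-shock genes the level was 31080 and 31169 CPM, with *Fos* at 4168 and 3807 CPM. Of 39 entered 6 were 2-fold or more higher, *Zfp36*, *Zfp36l1*, *Fosl2*, *Maff*, *Hspa1a* and *Hspa1b*, and the chaperone *Hspa5*, which is also on the secretory list, was the 1 lower, beside 4.78 and 6.35% of all genes, with a median of 0.08 against -0.21. *Hspa1a* was at log2 -0.034 with *Prg4* at 10% or more and at -0.013 with no *Cytl1* limit.

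Growth factor and matrix genes were also divided. *Igfbp5*, which binds insulin-like growth factors, was at 3906 and 1345 CPM (log2 -1.54, -1.63 to -1.44), and *Sema3a*, an axon-repelling ligand, at 279 and 79.2 CPM, though at log2 0.45 when cells were thinned to 2000 UMIs. *Areg* was at log2 -2.56, though 4 of 20 and 12 of 94 cells held it, and at 0.31 with *Prg4* at 10% or more. *Igf1r*, *Ccn5* and *Ccn3* were higher by log2 1.21 to 2.01. Of the 17 collagen chains *Col14a1* was higher (1 and 62 UMIs) and *Col8a1* lower (log2 -1.10, but 0.066 with *Prg4* at 10% or more and 0.22 with no *Cytl1* limit), with a median of -0.20. That is 1 and 1 of 17, beside 4.78 and 6.35% of all genes, and *Col14a1* passed the cell limit through the calcitriol library alone. Nothing is read from that count. Without the cells that held other types' markers 3 chains were higher and 1 lower, beside 263 and 326 of all 4879 genes. The median of the chains was then 0.08. Of 31 proteoglycan and matrix glycoprotein genes 3 were higher, *Dcn*, *Fbln2* and *Aspn*, and 9 lower, beside 4.78 and 6.35% of all genes. But without the cells that held other types' markers 8 were higher and 3 lower, beside 263 and 326 of all 4879 genes. *Fbln2* and *Aspn*, each in 1 untreated cell, passed the cell limit through the calcitriol library alone. Nothing is read from the count of 3 higher genes. *Tnc*, *Spon1* and *Thbs1* were lower by log2 1.27 to 1.70 over all cells, but with *Prg4* at 10% or more *Spon1* was at 1.48 and *Thbs1* at 0.91, and *Thbs1* was also positive at 3% or more (0.17) and with no *Cytl1* limit (0.56). *Lama2* and *Lama4*, laminin chains, were higher by log2 2.22 and 1.12. *Id1* of the BMP list was at log2 -1.05, but at 0.25 without the cells that held other types' markers and at 0.53 with *Prg4* at 10% or more. The integrin chain *Itga6* was at log2 -1.14. The pericyte markers *Rgs5* and *Cspg4* were at log2 -1.26 and -1.34, the whole list of 6 summed to 522 and 221 CPM with *Rgs5* the most abundant and 4 and 2 of its genes at 0, and its part in the other ratios was not tested.

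**Figure D5:**
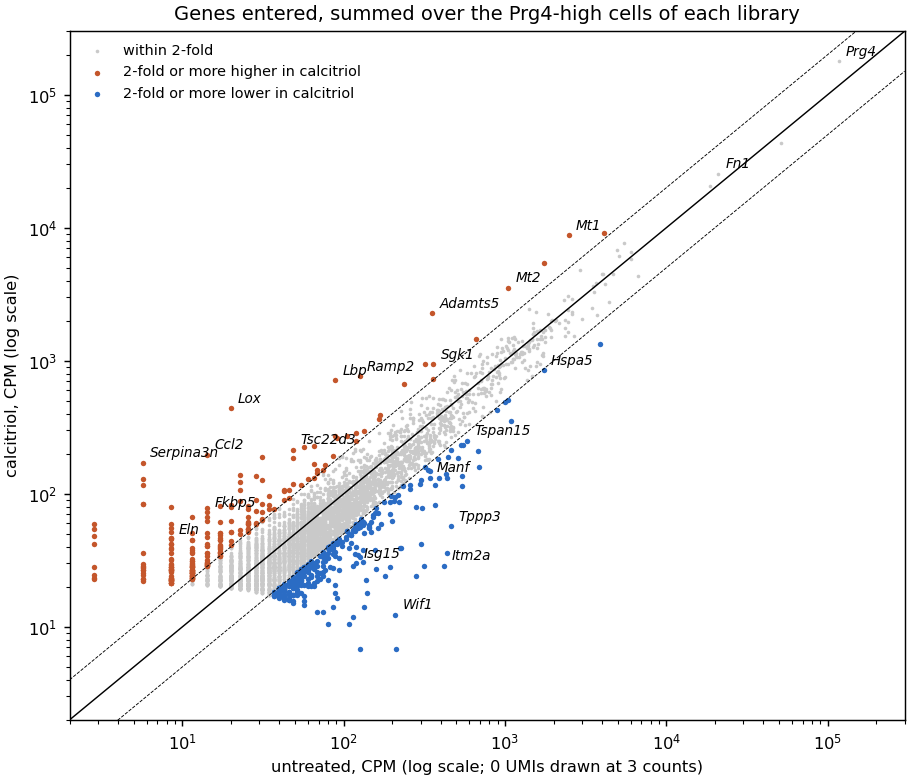
Summed level of each of 4879 genes in calcitriol (y axis, CPM, log scale) against untreated (x axis, CPM, log scale) Prg4-high cells, with equality as a solid line and 2-fold as dashed lines. *Adamts5*, *Lox*, *Lbp* and *Mt1* lie above the upper dashed line among 233 such genes, and *Tppp3*, *Manf* and *Isg15* below the lower one among 310. No difference is read from *Isg15*, which erythroid reference cells held at a higher level.

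Several of the low ratios after calcitriol depended on the cells with cartilage genes. *Col11a1* and *Acan*, like *Snorc* and *Hapln1*, were on the list that picked those cells. What leaving the cells out did to *Col11a1* and *Acan* was therefore largely set by that choice. *Itm2a*, *Col11a1* and *Cilp2* were at log2 -3.86, -3.46 and -3.24 over all cells and at 0.93, 0.11 and 0.76 without the cells that held other types' markers. *Acan*, *Meltf* and *Wif1*, at -2.59, -4.19 and -4.07, had too few UMIs left for a ratio without them. The tubulin-binding *Tppp3* was at 465 and 57.2 CPM (log2 -3.02) and at -3.15 without those cells. *Filip1l* and *Cemip* stayed at -3.05 and -2.31, and *Hhip*, a hedgehog-binding protein, at -2.64, though *Hhip* was at 0.19 with *Prg4* at 10% or more. *Cilp*, *Chad*, *Prelp*, *Fmod*, *Vit*, *Snorc* and *Hapln1*, also cartilage or tendon genes, were lower by log2 1.48 to 2.77 over all cells, and the first 4 of them were at 4.16, 1.18, 1.14 and 0.72 without those cells. With *Prg4* at 10% or more *Vit*, *Snorc* and *Hapln1* were at 0.81, 0.71 and 0.58.

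Genes of vitamin D action were mostly below detection. *Vdr*, the vitamin D receptor gene, had 0 UMIs in the 20 untreated cells and 2 UMIs in 1 of the 94 calcitriol cells. *Cyp24a1*, which inactivates calcitriol and is a direct target of the receptor, had 0 UMIs in both, as did *Fgf23*, *Tnfsf11* (RANKL) and *Cyp27b1*. A count of 0 allows up to 3 UMIs, and a level under that was not detectable at this depth. *Spp1*, the osteopontin gene, was at 17.1 and 81.1 CPM, in 25% and 55.3% of cells. The erythroid reference cells held it at 18.5 and 295 CPM, in 14.7 and 45.2% of cells, so the level in the Prg4-high cells is read as background and no difference is drawn from it. *Rxra*, the receptor's partner, had 1 and 54 UMIs (log2 3.12, 0.58 to 8.45). *Spp1* and *Rxra* were the only genes past 2-fold among 6 entered of the 27 of that list, both higher, beside 4.78% of all genes. *Rxra*, in 5% of untreated and 45.7% of calcitriol cells, passed the cell limit through the calcitriol library alone. With *Spp1* taken as background, nothing is read from that count. A second list held 15 genes that the paper describes as known calcitriol-responsive genes and reports as changed in *Fgf23*-expressing osteocytes. It had 7 entered and 0 past 2-fold, where 4.78% of all genes were higher and 6.35% lower. A count of 0 of 7 is near those shares, and nothing is read from it. Since the change in osteocytes was reported from these same libraries, this is no independent list.

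Within the calcitriol library the 47 cells with the higher *Prg4* share (15.6% and up) were set against the 47 with the lower, on genes that the rule did not use. With *Prg4* left out of the total, 44 of 4228 genes (1.04%) were 2-fold or more higher in the upper group and 112 (2.65%) lower. Of the 6 calcitriol cells that held other types' markers, 4 lay in the lower and 2 in the upper group, and median UMIs were 16276 and 25976. Without those 6 cells 39 of the 44 and 96 of the 112 were still 2-fold or more different in the same direction. *Slpi* was at 33.7 and 259 CPM (lower and upper group), in 4 and 20 cells, and at 35.4 and 231 CPM without the 6 cells. *Eln* was at 18.7 and 85.6 CPM, in 10 and 28 cells, and at 20.4 and 89.1 CPM without them, but *Fabp4*, at 21.2 and 103 CPM, was at 23.2 and 23.3 CPM. *Cilp*, a cartilage matrix gene (357 and 2.01 CPM) and *Clu*, clusterin (544 and 33.2 CPM), were the other way, and without the 6 cells they were at 157 and 1.06 CPM and at 218 and 35.0 CPM. *Fmod*, *Cxcl14*, *Aspn* and *Prelp* were also 2-fold or more lower in the upper group with and without the 6 cells. The part of depth in these differences was not tested.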

How the data were processed

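Femur cells of 2 groups, 6 pooled mice each, were measured by droplet 3′ RNA sequencing, 1 library per group. Per the submitters' notes the authors used Cell Ranger 4.0.0 with mm10 and Seurat 3.2.2, and the deposited matrices hold raw UMI counts per gene and barcode (70266983 untreated, 60392557 calcitriol). Members and gene lists were chosen with earlier results of these data known. Here UMIs were summed over cells and divided by the total (CPM), and a gene was entered if its UMIs reached 50 over both libraries and 10% of either library's cells held it. Ratios carry exact conditional 95% intervals and shares exact binomial ones, for counting error only. No test was run. A group at 0 was set to 3 UMIs. Named genes were the rule's genes, the 15 most abundant, the 10 highest and 10 lowest ratios among genes that at least 20% of the cells of the higher library held, predicted genes left out, and list members past 2-fold or most abundant. Doublets were scored against simulated pairs and kept, and leaving them out was an alternative. The scripts (Python 3.11.15, numpy 2.4.6, scipy 1.17.1, scikit-learn 1.9.0) were tested on simulated data. One gene of the complement list is not reported here.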

Additional observations from a re-analysis of the deposited data

Results flagged for a closer look

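The genes here were 2-fold or more different after calcitriol in the Prg4-high cells and 2-fold or more different in the opposite direction in another class of the same libraries. With 1 library per group none of these differences between classes was tested. Against surface cartilage, *Chad* was at log2 -2.53 and 1.03 there, but at 1.18 in the Prg4-high cells without those that held other types' markers. *Col8a1*, a short-chain collagen, was at -1.10 and 1.01, but at 0.066 in the Prg4-high cells with *Prg4* at 10% or more and at 0.22 with no *Cytl1* limit. *Thbs1* (thrombospondin 1) was at -1.70, against 1.07 in surface cartilage and 1.2 in tendon-like cells, but it was at 0.91 in the Prg4-high cells with *Prg4* at 10% or more, at 0.17 with 3% or more and at 0.56 with no *Cytl1* limit. Against fibroblasts, *Eln* was at least log2 2.42 higher in the Prg4-high cells and at -1.27 in fibroblasts. *Eln*, with no untreated UMI in the Prg4-high cells, was entered through the calcitriol library alone and could only come out higher. No difference between classes is read from *Eln*.

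Against tendon-like cells, *Ccn3* was at 2.01 and -2.11, and *Plau* at least 2.44 higher and at -1.39. *Plau*, with no untreated UMI in the Prg4-high cells, was entered through the calcitriol library alone and could only come out higher. No difference between classes is read from *Plau*. The interferon-induced genes *Bst2*, *Isg15* and *Ifit1* were at -1.10, -1.99 and -1.96 in the Prg4-high cells and at 1.06, 5.16 and 5.70 in the tendon-like cells. *Bst2* was at 0.28 in the Prg4-high cells with *Prg4* at 10% or more, and *Isg15* was at 120 and 30.2 CPM in them against 820 and 1080 CPM in erythroid reference cells. *Ifit1* after calcitriol was at 14.7 CPM against 19.1 CPM in those reference cells. No difference between classes is therefore read from *Isg15* or *Ifit1*. The pericyte marker *Rgs5* was at -1.26 and 5.69. The tendon-like values of *Ifit1*, *Isg15* and *Rgs5* rest on 1, 2 and 3 untreated UMIs.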

How the results depend on the processing

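No paired analysis was possible because each group is 1 library, and for the same reason no replicate could be left out. For 11 main values, *Prg4* and the shares of cells among them, 18 alternatives gave 125 values within their limits and 53 that moved. Limits were the counting interval for *Prg4* and the shares, and 1.5-fold of the main count for numbers of genes. Only the *Prg4* ratio could change direction, and it did so in 0 alternatives. Of 102 named genes past 2-fold, 74 kept their direction in all values that could be computed. An alternative that left no ratio, as for *Acan* and *Meltf* above, was not counted. A gene at 0 UMIs in a library could not turn. UMI and fold limits were not varied for single genes. The share of Prg4-high cells was 0.151 and 1.86% (untreated and calcitriol) with *Prg4* at 10% or more, 3.04% in calcitriol at 3% or more, 1.81% in calcitriol with no UMI of *Cytl1*, and 1.14 and 6.35% with no *Cytl1* limit. The log2 ratio of *Prg4*, which describes the choice of cells and moves with it, was 0.13 at 10% or more, 0.64 at 3% or more, 0.40 with no *Cytl1* limit, 0.55 with no UMI of *Cytl1*, 0.71 with *Prg4* out of the total and 0.71 with haemoglobin and mitochondrial genes out too, 0.55 as the mean of cells, 0.57 thinned to 2000 UMIs, 0.62 without simulated doublets and 0.54 without cells that held other types' markers, an alternative chosen after seeing the data. Genes higher and lower after calcitriol numbered 492 and 1139 at 1.5-fold, 75 and 134 with the interval beyond 1.5-fold, 562 and 782 with at least 20 UMIs and no cell limit, 53 and 50 with at least 200 UMIs, and 44 and 22 when thinned, and 405 were higher with *Prg4* at 10% or more. Genes above and below surface cartilage numbered 654 and 938 at 1.5-fold, 95 and 260 with at least 200 UMIs, 127 and 81 with no *Cytl1* limit, and 38 and 126 when thinned, and 638 were above with at least 20 UMIs. For fibroblasts they numbered 427 and 1505 at 1.5-fold, 94 and 450 with at least 200 UMIs, and 47 and 219 when thinned, with 293 above when *Prg4* was out of the total, 302 with haemoglobin and mitochondrial genes out too, and 422 below with the interval beyond 1.5-fold. For tendon-like cells they numbered 288 and 495 at 1.5-fold, 272 and 493 with at least 20 UMIs, 67 and 105 with at least 200 UMIs, and 37 and 67 when thinned. Filters and thinning change how many genes are tested, and the cause of the other moves was not tested.

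Among single genes the direction turned in 50 values. With *Prg4* at 10% or more, which left 7 untreated cells, the log2 ratio was 0.31 for *Areg*, 0.28 for *Bst2*, 0.36 for *Chad*, 2.40 for *Cilp*, 1.07 for *Clu*, 0.44 for *Col11a1*, 0.066 for *Col8a1*, 1.24 for *Creld2*, -0.15 for *Cxcl10*, 0.58 for *Hapln1*, 0.19 for *Hhip*, -0.034 for *Hspa1a*, 0.53 for *Id1*, 0.31 for *Itm2a*, 0.71 for *Snorc*, 1.48 for *Spon1*, 0.91 for *Thbs1*, 0.49 for *Tmem196* and 0.81 for *Vit*. At 3% or more it was 0.10 for *Chad*, 0.46 for *Cilp*, 1.25 for *Clu*, 1.94 for *Cxcl14*, 0.32 for *Fmod*, 0.28 for *Prelp*, 0.17 for *Thbs1* and 0.78 for *Tnfrsf11b*. Without cells that held other types' markers it was 1.18 for *Chad*, 4.16 for *Cilp*, 0.76 for *Cilp2*, 0.89 for *Clu*, 0.11 for *Col11a1*, 2.32 for *Cxcl14*, 0.72 for *Fmod*, 0.25 for *Id1*, 0.93 for *Itm2a* and 1.14 for *Prelp*. With no UMI of *Cytl1* it was 3.0 for *Cilp* and 1.69 for *Cxcl14*. With no *Cytl1* limit it was -0.58 for *C4b*, 1.36 for *Chad*, 0.64 for *Cilp*, 0.17 for *Clu*, 0.22 for *Col8a1*, -0.013 for *Hspa1a*, -0.19 for *Icam1* and 0.56 for *Thbs1*. Thinned, it was 0.42 for *Cxcl2*, 0.45 for *Sema3a* and 0.59 for *Tmem196*. With 20 untreated cells, depth limits every gene of low level, and its lower interval bounds are wide.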
